A study of Mus musculus with 4 samples.

Results

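Resting CD4+ T cells from mice with intact and with deleted *Cic* in T cells were compared gene by gene, with 1 RNA library from each genotype. The genes compared were chosen by name alone, as all deposited loci that carry a gene name. Levels in the cKO day 0 library were set against those in the WT day 0 library for the same locus. Those named one by one below were in part picked by their values in these libraries, as set out under processing. Of 31171 loci, 23906 carry a name. They stand for 23339 genes once each of 411 names that occur on several loci was kept at its locus of highest mean level. The level is the FPKM, the number of sequenced fragments scaled to transcript length and to the total mapped in the library, and 10911 genes that reached an FPKM of 1 in either library are called measured (10686 in WT and 10442 in cKO).

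Both libraries came from spleen CD4+ T cells of C57BL/6J mice aged 10 to 12 weeks that carried floxed *Cic* alleles. WT cells were *Cic* f/f with no Cre, and cKO cells were *Cic* f/f; Cd4-Cre, in which the *Cd4* promoter drives Cre and the floxed stretch of *Cic* is cut out in T cells, CD8 T cells included, because *Cd4* is switched on before the lineages part in the thymus. The other 2 of the 4 libraries of the series came from the same genotypes after 3 days of stimulation by antibodies to CD3 and CD28 on the plate and are used only where a day 3 value is given. Under the name naive, the labels give a gate that includes CD25- and CD44hi and extraction with Trizol, whereas the methods of the study give CD44lo cells and a ReliaPrep kit, so the gate is uncertain. The number of mice behind a library is not given in the sources used here. With 1 library per genotype there is no replicate, no difference has a test or an error, and each value describes 2 libraries and not the genotypes.

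CIC is a DNA-binding repressor of the HMG-box type. It sits at short octamer motifs near its target genes, and signalling from Ras through ERK releases or removes it, so that genes it holds down, among them the PEA3 group of ETS factors, come on with growth factor or antigen receptor signals. Several known CIC targets encode inhibitors of the same cascade, such as Sprouty and SPRED proteins and MAP kinase phosphatases. In T cells this cascade runs downstream of the T-cell receptor.

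A gene is called higher or lower here by a rule of size, a log2 ratio of (cKO FPKM + 0.1) to (WT FPKM + 0.1) above 1.5 or below -1.5. Of the 10911 measured genes, 53 were higher in cKO (0.486%) and 198 were lower (1.81%), which makes 2.3% in all. The median log2 ratio was 0.00, the quartiles were -0.17 and 0.14, and 10410 genes (95.4%) lay within 1 of 0. The 251 genes past the rule were not spread evenly over kinds of gene. Lists of genes of other cells of the spleen or of sex-linked genes held 178 measured genes and 86 of the lower ones, small RNA genes held 129 measured genes and 20 of the higher ones, and predicted genes with Gm names held 165, with 2 higher and 8 lower. These 3 classes are kept apart below. The other-cell lists were written with earlier results of these data known, so part of their share is built in. Of their further myeloid genes, a list taken from genes the study lists as differing, 33 of 36 were lower. The remaining 10439 genes held 30 higher (0.287%) and 96 lower (0.920%), and most of the 96 were weakly expressed, with 5 at a mean FPKM of 5 or more. With a pseudocount of 1 in place of 0.1, which damps ratios of weakly expressed genes further, 8 of the 30 and 9 of the 96 still passed the rule. The 8 were *Etv4*, *Etv5*, *Spred1*, *Dusp4*, *Lrfn1*, *Prmt2*, *Cldn10* and *Esrra*.

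**Figure D1:**
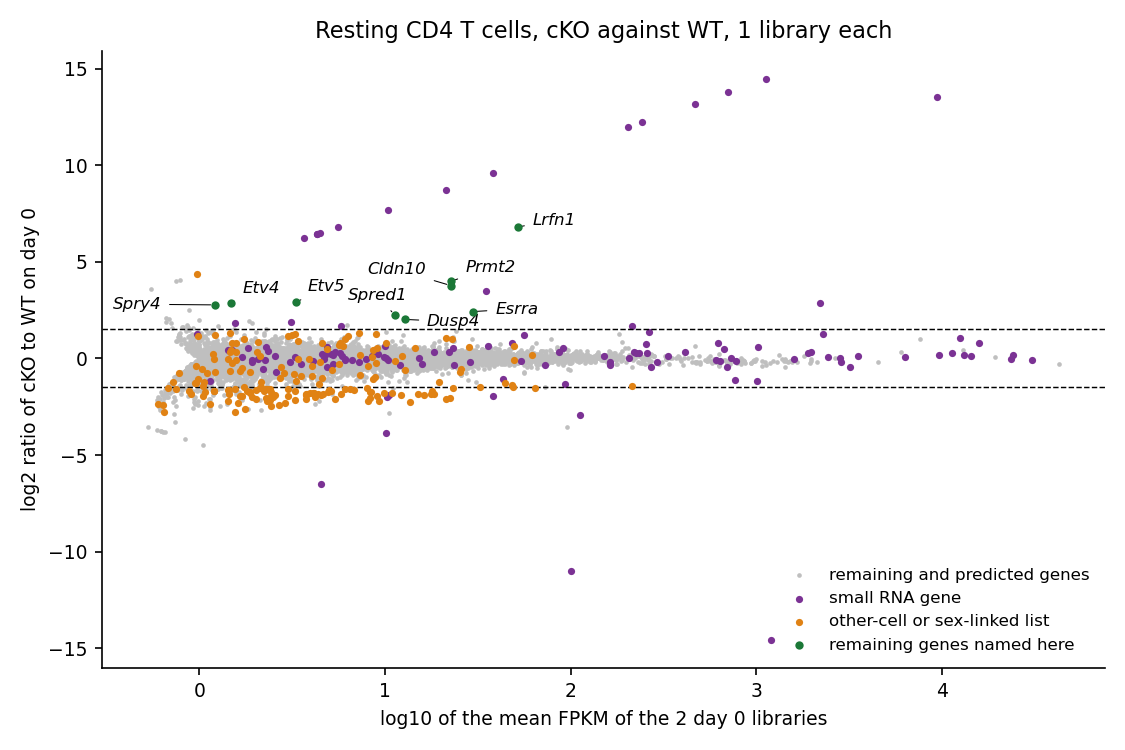
Log2 ratio of cKO to WT on day 0 for the 10911 measured genes against the log10 of their mean FPKM in the 2 libraries, 1 point a gene, with dashed lines at 1.5 and -1.5. Grey points are remaining and predicted genes, purple points small RNA genes, orange points genes of other-cell or sex-linked lists, and green points are 9 remaining genes labelled by name, from *Dusp4* at 2.02 to *Lrfn1* at 6.80. Most orange points past a line lie below -1.5 and the purple points reach from -14.55 to 14.47.

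Weakly expressed genes passed the rule most often, apart from small RNA genes. Among weakly expressed genes 1 read was worth 0.818 times as much FPKM in cKO as in WT, and the worth of 1 read implies about 7210000 fragments in WT and 8820000 in cKO. Of 1513 measured genes with a mean FPKM under 2, 25 were higher and 120 lower, and of 3318 with a mean of 10 to 30, 7 and 17. The SD of the ratios was 0.86 and 0.35 in these ranges, and 2.00 among 356 genes with a mean of 100 or more, where 8 were higher and 3 lower. All 11 of these were small RNA genes, and without small RNA genes the SD there was 0.22. Among the 30 higher remaining genes, the 28 with a known length had a median of about 33.5 reads in the cKO library, and 11 had fewer than 20. Among the 96 lower ones, 82 had a known length, with a median of about 22 reads in WT and 32 genes under 20. Read numbers are estimates from the FPKM and the length of the longest transcript of the gene in the GENCODE annotation of mm9. Counting error is only part of the error of a value.

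*Cic* itself stood at 25.4 FPKM in WT and 24.9 FPKM in cKO, a log2 ratio of -0.03. The value covers the whole deposited locus, chromosome 7 from 25267720 to 25297955 in GRCm38, which is shared with *Pafah1b3* and holds exons outside any floxed stretch, and so cannot be used to check the deletion. Genes for partners of CIC were also level. *Atxn1*, which encodes the CIC-binding protein ataxin-1, had 3.18 and 3.01, its relative *Atxn1l* 4.44 and 4.26, and *Rfwd2*, which encodes the ubiquitin ligase COP1, 12.8 and 12.9. Of the 5 genes of this list none passed the rule, and their median was -0.06.

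The PEA3 group, ETS factors that are textbook targets of CIC, was higher in cKO for both measured members. *Etv5* stood at 0.706 FPKM in WT and 5.95 FPKM in cKO, about 20 and 209 reads, for a log2 ratio of 2.91. *Etv4* had 0.278 and 2.68, about 5 and 57 reads, for 2.88. Both genes were thus under the minimum of 1 in WT cells and above it in cKO cells. *Etv1*, the last member of the group, had 0.107 and 0.670, about 3 and 25 reads, which is below the minimum of 1 in both libraries, so that its log2 ratio of 1.89 does not count as a call. On day 3 *Etv5* had 1.49 in WT and 5.85 in cKO, a log2 ratio of 1.90. *Etv4* had 0.337 and 4.70, a ratio of 3.46. The cKO library was above the WT library for both genes on either day, as set out in the plot of PEA3, Sprouty, SPRED and phosphatase genes. The other ETS factors did not share this. All 13 measured members of that list lay between -0.26 for *Etv6* and 0.26 for *Elk3*, with a median of 0.07, and *Ets1*, named here for its level as the main ETS factor of T cells, had 266 and 293.

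The regions the study amplified after CIC immunoprecipitation are shown because they lie at both of these PEA3 genes. They were located by matching its primers to the mm9 genome (NCBIM37), and both are written 5′ to 3′ on the minus strand, the strand of the genes. Capitals mark the octamers known for CIC, TGAATGAA, TGAATGGA, TCAATGAA or TCAATGGA on either strand. At *Etv4* the amplicon is chr11:101646646-101646911 and holds 5 octamers. The 226 bases at chr11:101646686-101646911 that precede the outermost annotated transcript start hold 3 of them.

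Etv4: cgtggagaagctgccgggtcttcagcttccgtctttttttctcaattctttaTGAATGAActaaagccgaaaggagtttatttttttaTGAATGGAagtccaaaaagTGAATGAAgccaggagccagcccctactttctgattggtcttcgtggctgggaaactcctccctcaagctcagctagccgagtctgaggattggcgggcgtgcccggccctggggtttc

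At *Etv5* the amplicon is chr16:22439825-22440053, 229 bases that end 32 bases before the outermost annotated transcript start, and it holds 1 octamer.

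Etv5: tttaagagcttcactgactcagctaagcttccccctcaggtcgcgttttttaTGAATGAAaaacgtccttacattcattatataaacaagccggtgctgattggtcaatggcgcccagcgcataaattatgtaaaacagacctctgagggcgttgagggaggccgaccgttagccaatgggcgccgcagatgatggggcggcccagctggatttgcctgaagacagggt

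The Sprouty and SPRED genes encode inhibitors that act on Ras and Raf, and 2 of the 5 measured members were higher, with a list median of 1.21 against 0.00 for all measured genes. With no FPKM minimum 7 members entered and the median was 0.52. *Spry4* was at 0.235 FPKM in WT and 2.19 FPKM in cKO, about 8 and 88 reads, a log2 ratio of 2.77, which became 1.37 with a pseudocount of 1. *Spred1* had 3.84 and 18.7, about 167 and 991 reads, a ratio of 2.25. *Spred1* is thus the gene with the most reads among the higher members of these families. *Spred2* had 7.46 and 17.4, a log2 ratio of 1.21 that stays inside the rule. *Spry1* had 1.37 and 2.01, a ratio of 0.52. *Spry2* went the other way, with 5.49 and 3.83, a ratio of -0.51. So the family was not level as a whole, and its members did not share 1 direction. On day 3 the log2 ratios were 1.13 for *Spry4*, 1.02 for *Spred1*, 0.73 for *Spred2* and -1.27 for *Spry2*, the same signs as on day 0 for all 4.

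The DUSP genes of the MAP kinase group encode phosphatases that remove the activating phosphates from ERK, JNK or p38. Of 8 measured, 1 was higher, and the median was 0.10. *Dusp4*, a nuclear phosphatase induced by ERK, had 4.99 in WT and 20.6 in cKO, about 99 and 497 reads, a log2 ratio of 2.02. *Dusp6*, the cytoplasmic phosphatase specific for ERK, had 13.2 and 35.2, about 267 and 869 reads, a ratio of 1.40 just inside the rule. These were the only 2 members past 1. *Dusp10* had 133 and 153, *Dusp5* 92.1 and 84.1, and *Dusp1* 88.1 and 89.5, so that the 3 most abundant phosphatase genes of the list lay between -0.13 and 0.20. On day 3 *Dusp4* had 34.98 and 52.2, a log2 ratio of 0.58. *Dusp6* had 15.6 and 22.7, a ratio of 0.53. Both were closer to level there than on day 0.

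**Figure D2:**
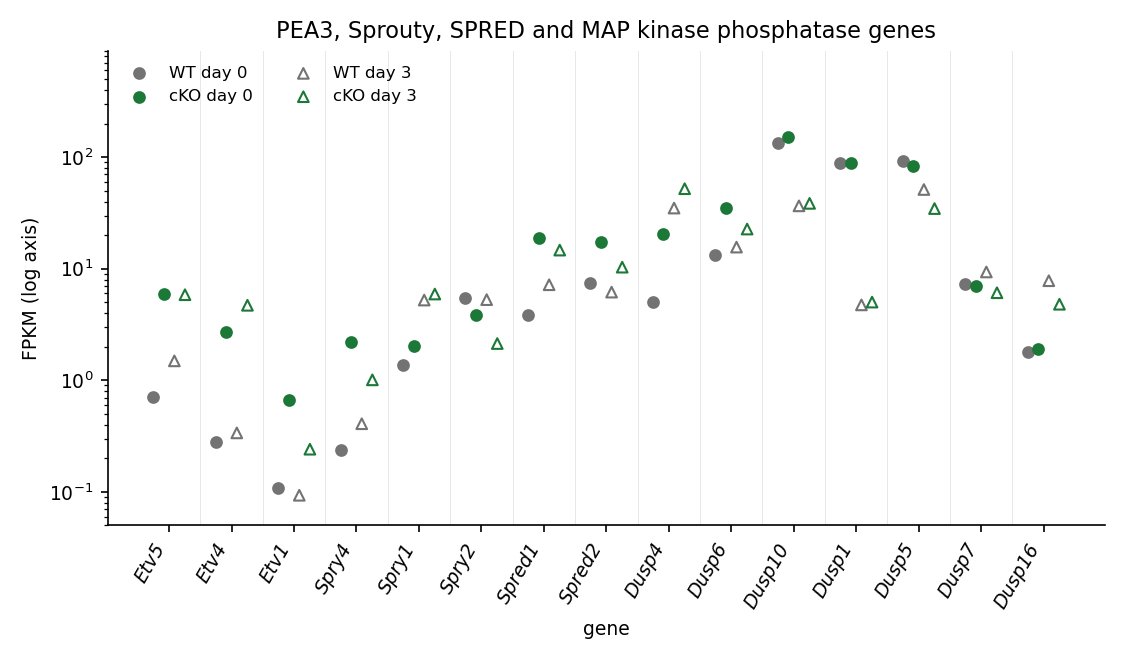
FPKM on a log axis in each of the 4 libraries for 15 genes of the PEA3 group, the Sprouty and SPRED inhibitors and the MAP kinase phosphatases, with 1 point a library, circles for day 0, triangles for day 3, grey for WT and green for cKO. The green circle is above the grey one by more than 1.5 on the log2 scale for *Etv5*, *Etv4*, *Spry4*, *Spred1* and *Dusp4* among the measured genes, and the circles of *Dusp1*, *Dusp5*, *Dusp7*, *Dusp10* and *Dusp16* nearly coincide.

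Of the promoter windows in the RefSeq table (GRCm38.p6), which run from 250 bases before a start to 50 after it, 3.84% of 32851 hold a CIC octamer on either strand and 0.183% hold 2 or more. The window of *Dusp6*, a gene just inside the rule, is shown because it holds 2, 1 beginning 24 bases before the first transcribed base and 1 beginning 1 base after it. It is printed on the plus strand up to the end of the second octamer, chr10:99262981-99263239, with the octamers in capitals, both TCCATTGA, the reverse complement of TCAATGGA.

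Dusp6: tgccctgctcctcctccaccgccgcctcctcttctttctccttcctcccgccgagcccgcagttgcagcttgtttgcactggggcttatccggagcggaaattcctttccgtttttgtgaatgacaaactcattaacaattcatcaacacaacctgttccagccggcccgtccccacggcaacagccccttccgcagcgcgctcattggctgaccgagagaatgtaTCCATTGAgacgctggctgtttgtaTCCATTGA

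The window of *Spry2*, whose level was not higher in cKO, holds 1 octamer, beginning at base -54, and no octamer lies in the windows of *Spred1*, *Spred2* or *Etv1* or in either window of *Etv5*. *Etv4*, *Spry4* and *Dusp4* have no entry in the table. Of 19 genes that were higher and have a window, with small RNA genes left out, 2 held an octamer (10.5%, *Myl10* and *Zfp72*), of 137 lower genes 4 (2.92%, *Clec7a*, *Hemgn*, *Kcnj10* and *Mgst1*), and of 8054 measured genes 215 (2.67%). A match is a description of these letters, and a window without one says nothing of CIC elsewhere at the gene.

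Genes of the Ras and ERK cascade itself, from the GTPases to the kinases, were nearly level. Of 22 measured none passed the rule, 17 lay above 0, and the median was 0.10. *Nf1*, which encodes the Ras inactivator neurofibromin, had 3.45 and 5.83, a log2 ratio of 0.74. *Rasa2*, another Ras inactivator, had 30.4 and 42.2, a ratio of 0.47. *Araf* had 21.9 and 26.5, and *Mapk3*, which encodes ERK1, had 7.59 and 8.99. The 2 largest ratios were those of genes for inhibitors of Ras, while 95% of all measured genes lay at or below 0.47. Immediate early genes, which ERK and other signals switch on within minutes, gave 0 of 16 past the rule and a median of 0.01. *Egr3* had 4.19 and 5.23, *Nr4a3* 47.2 and 58.7, and *Myc* 15.0 and 12.6. *Atf3* and *Ier3* had the lowest ratios of that list, with 9.60 and 4.31 for the first, a log2 ratio of -1.14, and 4.93 and 2.35 for the second, a ratio of -1.04. Over all 71 genes of the ERK and CIC lists, 5 were higher and 0 lower, with a median of 0.08. Of all measured genes 0.486% were higher and 1.81% lower. *Etv4*, *Etv5* and *Spry4* reached the minimum of 1 in cKO alone, and the lists were written with earlier results of these data known. The count is thus a description and gives no independent evidence of a direction.

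Outside these families 5 genes with an FPKM of 5 or more in either library were higher, and 3 of them had larger ratios than *Etv5*. *Lrfn1*, which encodes a synaptic adhesion protein, had 0.823 in WT and 103 in cKO, about 15 and 2352 reads, a log2 ratio of 6.80. On day 3 it had 64.4 in WT and 59.4 in cKO, so that WT day 0 was the low library of the 4. *Prmt2*, an arginine methyltransferase gene, had 2.59 and 42.7, a ratio of 3.99, against 3.26 and 3.93 on day 3, so that cKO day 0 was the high library of the 4. *Esrra*, which encodes the nuclear receptor ERRα, had 9.26 and 50.2, a ratio of 2.43, against 8.09 and 7.80 on day 3, the same pattern. The *Lrfn1* locus overlaps the predicted gene *Gm6518*, *Prmt2* overlaps the microRNA gene *Mir678*, and *Esrra* shares its locus with *Trmt112* (15.5 and 15.96) and overlaps *Mir6990* and *Prdx5*, and the part of these overlaps in the values was not tested. *Cldn10*, a gene for a tight junction protein, had 3.01 and 42.3, a log2 ratio of 3.77, and was listed at 0 in WT and at 7.64 in cKO on day 3. It shares its locus on chromosome 14 with *Dzip1* (16.1 and 30.5), and reads may be divided wrongly between them.

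*Per2* and a few less abundant genes completed the higher set. *Per2*, a repressor of the circadian clock, had 1.12 in WT and 3.47 in cKO, about 47 and 179 reads, a log2 ratio of 1.55. It was the only one of 14 measured clock genes past the rule, and the list median was 0.16, with *Arntl*, the activator of the clock, at 8.55 and 10.6. *Acn9*, which encodes an assembly factor of succinate dehydrogenase, had 2.84 and 9.65, a ratio of 1.73, and *Ankrd55* had 0.713 and 2.98, a ratio of 1.92. With a pseudocount of 1 these 3 genes no longer passed the rule. *Mgmt*, a DNA repair gene, had 0.191 and 1.56, and *Pcgf1*, of a Polycomb complex, 0.790 and 3.04. *Tnfrsf13c*, which encodes the BAFF receptor of B cells, had 0.738 and 2.32, a ratio of 1.53, and went with the B-cell genes described further on. The rest of those with a known length, such as *Dusp23*, *Myl10*, *Pspn* and *Gnrh1*, had fewer than 50 reads in either library. Of the 30 higher remaining genes 19 reached an FPKM of 1 on day 3, and 13 of these had a ratio of the same sign there. *Etv4*, *Etv5* and *Cldn10* were the 3 that passed the rule on both days.

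Between 1 and 1.5 lay 12 remaining genes with an FPKM of 5 or more, against 26 between -1.5 and -1, with a median of -1.13. Apart from *Dusp6* and *Spred2* the 12 included *Il6st*, which encodes gp130, the signalling chain of the interleukin 6 receptor, with 51.9 in WT and 105 in cKO, a log2 ratio of 1.01. On day 3 it had 13.9 and 24.6, with cKO again above WT. Others, named here for their place just inside the rule after their values were seen, were *Inadl*, a cell polarity gene with 14.7 and 31.8, and *Maml3*, a coactivator of Notch with 4.51 and 9.84. *Toporsos*, an antisense RNA gene, had 5.54 and 14.6, and the strand of counting is not given in the sources used here. Just past the rule on that side were *Acn9* at 1.73 and 2 small RNA genes, *Mir1192* at 1.70 and *Snora68* at 1.69.

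Genes of T cells did not pass the rule. In 23 lists of T-cell genes there were 245 distinct measured genes, of which 0 were higher and 0 lower, 239 (97.6%) lay within 1, and the median log2 ratio was 0.05. The extremes were *Ly6c2* at -1.23 and *Cxcr5* at 1.04. Of all measured genes 2.3% passed the rule and 95.4% lay within 1, but these include small RNA genes and genes of other cells. Of the 10439 remaining genes 0.287% were higher and 0.920% lower. Of the 7265 remaining genes with an FPKM of 5 or more, 8 were higher and 7 lower, and 99.3% lay within 1. Having none past the rule thus does not set the T-cell genes apart. The plot of T-cell lists shows each gene.

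**Figure D3:**
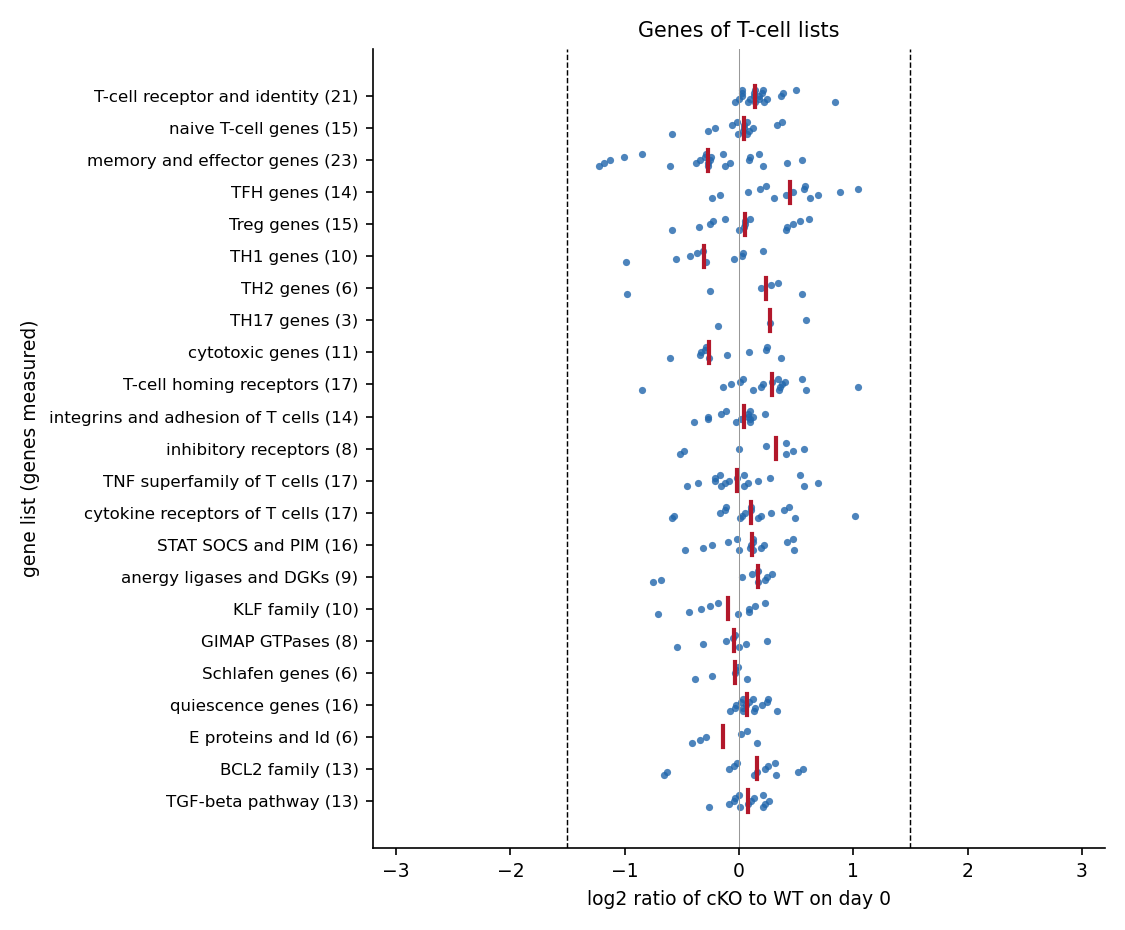
Log2 ratio of cKO to WT on day 0 for each measured gene of 23 lists of T-cell genes, 1 point a gene, with the list median as a red bar, the number of measured genes in brackets and dashed lines at 1.5 and -1.5. No point reaches a dashed line, and the list medians lie between -0.30 for T helper 1 genes and 0.44 for follicular helper T-cell genes.

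The identity of the cells was plain in both libraries. Genes of the T-cell receptor complex and its proximal kinases were abundant, and 20 of 21 had a ratio above 0, with a median of 0.14. *Cd3g* had 217 in WT and 250 in cKO, *Cd3e* 113 and 131, and *Lck*, the kinase bound to CD4, 165 and 213. *Cd4* had the largest ratio of this list, with 135 and 242, a log2 ratio of 0.84, and on day 3 it had 86.3 and 174, again with the cKO value above the WT value. The Cre of the cKO mice is driven by the *Cd4* promoter, and the part of the transgene in this value was not tested. The sum of 6 T-cell markers was 855 in WT and 1081 in cKO. *Cd8b1* had 4.11 and 7.27, *Cd8a* 0.353 and 0.469, so few CD8 T-cell transcripts were in either library.

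Genes of naive cells were at high and nearly equal levels. Of 15 none passed the rule and the median was 0.05. *Ccr7*, the lymph node homing receptor, had 92.4 in WT and 120 in cKO, and the transcription factor genes *Lef1* and *Tcf7* had 159 and 152, and 182 and 191. *Il7r*, the receptor for the survival factor interleukin 7, had the lowest ratio, with 119 and 79.0, a log2 ratio of -0.59. Genes of quiescence were level too, with 0 of 16 past the rule and a median of 0.07. *Foxo1* had 47.6 and 60.1, *Btg1* 265 and 289, and *Slfn2* 109 and 107. Of the GIMAP GTPases of resting lymphocytes, *Gimap6* had 408 and 377 and *Gimap4* 279 and 225.

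Memory and effector genes leaned lower in cKO, with 17 of 23 below 0 and a median of -0.27. The lowest were *Ly6c2*, with 18.5 and 7.87 (-1.23), and the chemokine receptor gene *Ccr2*, with 7.10 and 3.07 (-1.18). *S100a4* had 38.6 and 17.6 (-1.12), and *Anxa1* had 5.40 and 2.63 (-1.01). All 4 are also made by monocytes and other myeloid cells, whose markers were lower in cKO (5 of 5 macrophage and monocyte markers, summed FPKM 160 in WT and 50.1 in cKO, none at 0), and their part in these values was not tested. *Cd44*, the marker named in the sort, had 19.2 and 12.6. Genes of T helper 1 cells had a median of -0.30 over 10, with *Tbx21* at 3.03 and 2.23 and *Ifng* at 5.08 and 4.13, and cytotoxic genes a median of -0.26 over 11, with *Gzmb* at 6.13 and 4.84. NK-cell genes, which overlap these in function, had 10 of 12 below 0 and a median of -0.49. Here *Ncr1*, a receptor that marks NK cells, had 6.28 and 4.06. The summed FPKM of the NK markers *Ncr1* and *Klrb1c* was 10.9 in WT and 6.50 in cKO, and their part in the values was not tested.

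Genes of follicular helper T cells, the cells that help B cells in germinal centres, leaned higher, with 12 of 14 above 0 and a median of 0.44, the highest among the T-cell lists, but none passed the rule. *Cxcr5*, the receptor that guides cells to B-cell follicles, had 2.53 in WT and 5.31 in cKO (1.04). *Irf4* had 16.5 and 30.5 (0.88), *Cd40lg*, the CD40 ligand, 27.8 and 44.97 (0.69), and *Icos* 14.2 and 21.9 (0.62). These are surface and regulatory genes of T-cell help, and *Cxcr5* and *Irf4* are also used by B cells. *Sh2d1a*, which encodes the adaptor SAP, had 14.5 and 21.8 (0.58), *Pdcd1*, which encodes PD-1, 1.46 and 2.21 (0.57), and *Bcl6*, the lineage factor, 6.70 and 9.32 (0.47). *Maf* went the other way with 4.92 and 4.15 (-0.24), and *Il21*, the cytokine of these cells, was below the minimum with 0.0442 and 0.109. All 17 B-cell genes were above 0 as well, with none of the 4 markers at 0 and a summed FPKM of 13.4 in WT and 30.6 in cKO, and their part in these values was not tested.

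Regulatory T-cell genes had a median of 0.05 over 15. *Foxp3*, their lineage factor, had 5.11 in WT and 7.87 in cKO (0.62), *Ctla4* 34.4 and 47.7 (0.47) and *Tnfrsf9* 4.75 and 6.93 (0.54), whereas *Folr4* had 20.2 and 13.4 (-0.59). So the members did not share a direction. T helper 2 genes had a median of 0.24 over 6, with *Il4ra* at 47.3 and 57.4, and only 3 T helper 17 genes were measured. Cytokine receptors had a median of 0.10 over 17, with *Il6st* highest and *Il21r*, the interleukin 21 receptor, at 51.1 and 71.8, and *Il10ra* at 9.47 and 6.35. Homing receptors had 14 of 17 above 0 and a median of 0.29, with *Cxcr6* lowest at 11.6 and 6.37. Inhibitory receptors had a median of 0.32 over 8, from *Cd160* at 7.09 and 4.91 to *Pdcd1*. The remaining T-cell lists, among them integrins, the TNF superfamily, STAT, SOCS and PIM genes, anergy ligases, KLF factors, E proteins, the BCL2 family and the TGF-β pathway, had medians between -0.14 and 0.17.

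Pathway genes apart from interferon-induced transmembrane and IFI200 genes gave 1 higher gene, *Per2*, and 0 lower ones of 241, with a median of -0.04. Cell cycle genes all leaned one way. Each of 19 had a ratio below 0, with a median of -0.46, which ranged from -0.51 to -0.30 over the pseudocounts, minima and centring tried. Weakly expressed genes leaned lower in general, with a median of -0.17 over all measured genes with a mean FPKM under 2 and -0.04 from 2 to 5. *Mki67*, which encodes the Ki-67 antigen of dividing cells, had 15.1 in WT and 9.90 in cKO (-0.61), *Ccnb1*, the mitotic cyclin, 1.68 and 0.638 (-1.27) and *Tpx2* 2.11 and 1.09 (-0.89). DNA replication genes had 15 of 17 below 0 and a median of -0.23, with *Mcm5* at 10.4 and 7.03, and histone genes 43 of 54 below 0 and a median of -0.30, with *Hist1h2ab* at 6.38 and 2.31 (-1.43). Dividing cells of other lineages also carry these transcripts. Erythroid markers stood at a summed 378 in WT and 143 in cKO and were lower in 4 of 4, and their part here was not tested.

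Interferon-stimulated genes were mixed, with 0 of 31 past the rule and a median of -0.11. *Rsad2*, which encodes viperin, had 4.27 in WT and 1.83 in cKO (-1.18), and *Oas1a* 5.83 and 3.49 (-0.72). *Irgm1* and *Igtp*, GTPases induced by interferon γ, had 31.1 and 52.2 (0.74) and 36.99 and 60.9 (0.72). The members thus did not share a direction. Of the interferon-induced transmembrane and IFI200 genes, 5 of 7 were lower, with a median of -2.21. *Ifitm3,Ifitm6* had 18.4 and 2.49 (-2.84), *Ifitm1* 7.35 and 1.51 (-2.21), and *Ifitm2* 16.5 and 5.65 (-1.53). On day 3 *Ifitm3,Ifitm6* was again lower in cKO, with 20.8 and 3.54. *Ifi204*, which stands in the list of further myeloid genes as well, had 4.601 and 0.793 (-2.40), while *Aim2*, a member that senses DNA, had 9.09 and 8.87. The macrophage and monocyte markers given above were lower too, and their part in these values was not tested.

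MHC class I genes had 10 of 11 above 0 and a median of 0.18, with *H2-K1* at 580 in WT and 681 in cKO and *H2-Q7* at 123 and 158. Genes of NF-κB had a median of 0.10 over 13, with *Tnfaip3*, its inhibitor A20, at 251 and 293. Metabolic lists were close to level. Glycolysis had a median of -0.08 over 17, with *Hk2* at 1.48 and 0.697 (-0.99) and *Tpi1* at 16.5 and 8.98 (-0.87), the TCA cycle 0.02 over 17, and cholesterol synthesis -0.10 over 18, with *Dhcr7* at 3.17 and 4.69 and *Mvk* at 4.14 and 2.40. Glucocorticoid-responsive genes had a median of 0.12 over 10, with *Irs2* at 12.9 and 19.4. Heat shock genes and genes of the unfolded protein response had medians of -0.13 and -0.12, and reference genes of PCR work -0.03 over 13.

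Large gene families were near level. Cytosolic ribosomal protein genes had 81 of 85 below 0 but a median of -0.15, and mitochondrial ribosomal protein genes a median of 0.05 over 73. Proteasome subunits had -0.01 over 37, complex I of the respiratory chain -0.03 over 36, and eukaryotic initiation factors -0.07 over 52. No gene of these families passed the rule. Of 244 zinc finger genes with Zfp names 1 did, *Zfp72* at 0.350 and 1.28. Some families with members in myeloid cells held lower genes, where 1.81% of all measured genes were lower. C-type lectins had 7 of 11 lower and a median of -1.87, while *Clec2i* was at 0.33. Lectins such as *Clec4n* (4.17 in WT and 0.675 in cKO) and *Clec4e* (1.09 and 0.192) reached the minimum of 1 in WT alone. The 7 of 11 is thus partly set by the minimum, and at an FPKM minimum of 5 the lectin median was 0.013. Toll-like receptors had 1 of 6 lower, integrins 2 of 20 and semaphorins with plexins 2 of 10.

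Genes of other cells of the spleen are described apart, because 86 of the 198 lower genes stood in their lists. Lists of other cells held 173 distinct measured genes, of which 86 were lower and 1 higher, with a median of -1.49. Over the 120 genes of myeloid and erythroid lists, 118 had a ratio below 0, 86 were lower and the median was -1.70. With a pseudocount of 1, 29 of the 86 still passed the rule. The 29 genes of lymphoid and MHC class II lists had 28 above 0 and a median of 0.78. In a bulk sample, fewer cells of a type and less RNA per cell cannot be told apart. The lists were written with earlier results of these data known, and the list of further myeloid genes was taken from genes the study lists as differing, so their counts are a description and give no independent evidence of a direction.

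Genes of red pulp macrophages, which clear red cells in the spleen, were all lower, 20 of 20, with a median of -1.87 and a narrow range from -2.25 to -1.65. Their summed FPKM was 347 in WT and 90.3 in cKO. *Vcam1* had 36.2 and 8.59, *Trf*, which encodes transferrin, 34.3 and 8.04, and *Hmox1*, the haem-degrading enzyme, 27.1 and 8.47. *Spic*, the factor that specifies these macrophages, had 13.3 and 2.84, and *Fcna*, a ficolin, 22.7 and 4.70. Thus none of these 5 was absent from the cKO library. With a pseudocount of 1, 14 of the 20 still passed the rule. Monocyte and macrophage genes had 16 of 28 lower and a median of -1.54. *Lyz2*, lysozyme of myeloid cells, had 95.7 and 32.96 (-1.53), and *Fcer1g* had 34.6 and 12.1 (-1.51), both just past the rule. *Apoe* at -1.49, with 72.5 and 25.8, was just short of it. *Ms4a6c*, with 51.1 and 48.3, stood apart from its list at -0.08.

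Other myeloid and erythroid lists had the same sign with a wider spread. Among neutrophil genes 5 of 12 were lower, with a median of -1.16. Granule genes of precursors were among them, with *Mpo* at 13.3 and 3.196 and *Elane* at 4.003 and 0.818, whereas *S100a9* had 11.8 and 10.7 and *Ngp* 3.44 and 3.34. Among genes of basophils, mast cells and eosinophils 3 of 9 were lower, with *Prss34* at 12.0 and 4.06 and *Prg2* at 7.26 and 1.98. Erythroid genes had 10 of 16 lower and a median of -1.63. The haemoglobin gene pair *Hbb-b1,Hbb-bs* had 311 and 116, the highest of the list. Platelet markers were low, with *Pf4* at 0.868 and 0, under the minimum of 1, and *Itga2b* at 1.21 and 1.18. The platelet list had a median of -0.28 over 4, with *Gp1ba* the other way at 2.02 and 2.22 (0.13). All 5 measured dendritic-cell genes lay below 0, with a median of -0.23, and none passed the rule. *Flt3* had the lowest ratio, with 2.04 and 1.28 (-0.63), and *Itgax* had 1.61 and 1.53.

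B-cell genes had the opposite sign. All 17 lay above 0, between 0.36 and 1.31, with a median of 0.88, and none passed the rule. *Cd79b* had 5.29 in WT and 12.7 in cKO and *Ms4a1*, which encodes CD20, 3.85 and 8.82. MHC class II genes, which B cells and antigen-presenting cells use, had 9 of 9 above 0 and a median of 0.62, with *Cd74* at 39.0 and 60.05 and *H2-Aa* at 22.5 and 34.5. These B-cell levels were far below those of *Cd3g* and *Cd4* in both libraries. *Mzb1*, a plasma cell gene, was listed at 0 in WT and at 1.94 in cKO and was the 1 other-cell gene called higher. The endothelial marker *Pecam1*, which T cells also make, had 57.7 and 65.7, while the collagen genes *Col1a1* and *Col3a1* were under 0.1 in both libraries.

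**Figure D4:**
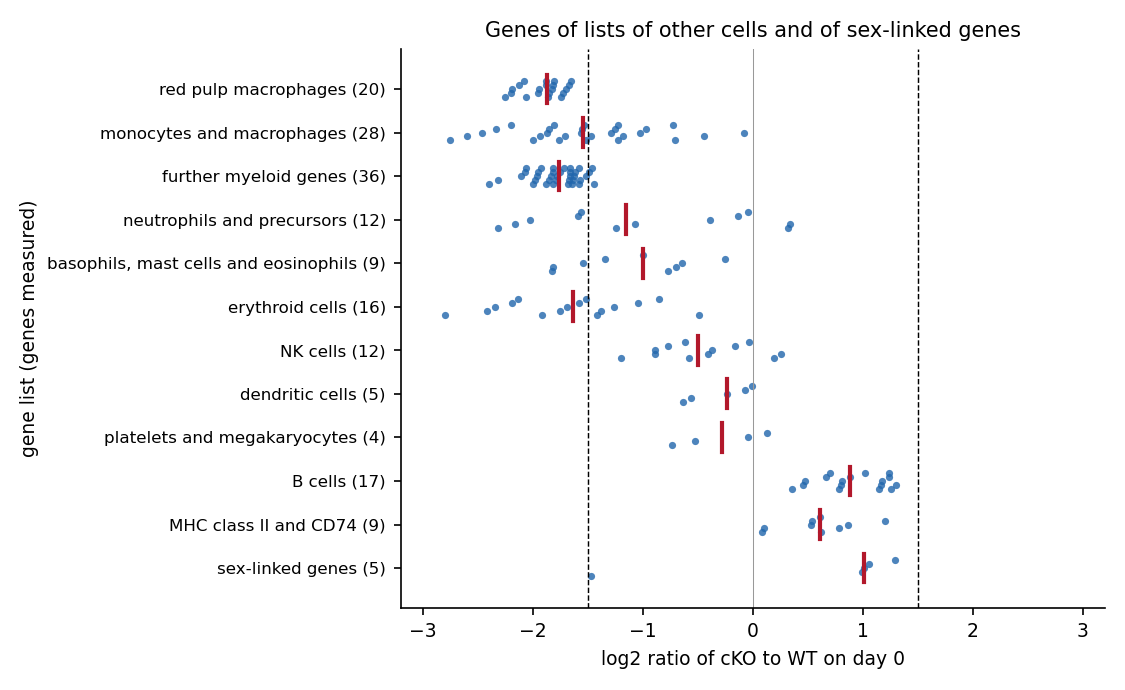
Log2 ratio of cKO to WT on day 0 for each measured gene of 11 lists of other cell types and 1 of sex-linked genes, 1 point a gene, with the list median as a red bar, the number of measured genes in brackets and dashed lines at 1.5 and -1.5. Points of red pulp macrophages all lie left of -1.5, and points of B cells all lie between 0.36 and 1.31.

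The libraries also differed in sex-linked transcripts. *Xist*, made from the inactive X chromosome, was at 47.6 FPKM in WT and 17.2 FPKM in cKO (-1.47), and on day 3 68.3 and 21.1. The Y-linked genes *Kdm5d*, *Ddx3y* and *Eif2s3y* had 4.15 and 10.3 (1.30), 13.9 and 28.9 (1.06), and 15.1 and 30.6 (1.02). Each library thus held both *Xist* and Y-linked transcripts, in different proportions. The sex of the mice is not given in the labels, and its part in the other differences was not tested.

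Among the 96 lower remaining genes, those with an FPKM of 5 or more in either library were few. There were 7 of them, against 8 higher, of 7265 such genes, and 99.3% of these lay within 1. Apart from the 3 transmembrane genes given above, they were *Mt1*, which encodes metallothionein, with 7.09 and 1.31 (-2.35), the eosinophil ribonuclease pair *Ear2,Ear3*, with 8.12 and 2.21 (-1.83), and 2 RNA genes that share a locus with a microRNA. *2810008D09Rik,Mir6516* had 27.2 and 8.21 (-1.72). *5730408K05Rik,Mir5136* had 176 and 15.0 (-3.54), but 38.2 and 161 on day 3, with the order of the genotypes turned round. Many of the weaker ones are known from myeloid cells though they stand in none of the lists. *Hp*, haptoglobin, had 2.81 and 0.619, *Apoc1* 3.54 and 0.720, *Pparg*, a nuclear receptor of macrophages, 1.78 and 0.524, and *Timd4*, a receptor for dying cells on macrophages, 1.15 and 0.210. *Il6*, a cytokine gene, had 1.10 and 0.225, about 9 and 2 reads, which is too few to place it. Of the 96 genes 37 reached an FPKM of 1 on day 3, 24 of these had the same sign there, and 6 passed the rule in the same direction, *Ifitm3,Ifitm6* and *Pparg* among them.

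Small RNA genes showed the largest ratios in both directions. Of 129 measured 28 passed the rule (21.7%), 20 higher and 8 lower, and 16 of the 28 were listed at 0 in one library. *Snord65*, a small nucleolar RNA gene, was listed at 0 in WT and at 2267 in cKO, and on day 3 at 2236 and 0. *Mir669h*, a microRNA gene, had 2407 in WT and was listed at 0 in cKO, and *Mir669c* had 1.52 and 18829. A level given as exactly 0 may be an estimate that failed, and no direction was read from these values. Genes that overlap a small RNA gene accounted for 3 of the 30 higher and 6 of the 96 lower remaining genes.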

How the data were processed

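RNA from resting CD4+ T cells was sequenced from 1 WT and 1 cKO library (TruSeq, NextSeq). According to the methods of the study and the submitters' processing notes, the authors used TopHat 2.0.10 with mm9 RefSeq for mapping and made the deposited FPKM values with Cufflinks 2.1.1, which scales fragments to transcript length and library total. CASAVA is also named there. FPKM were taken from the day 0 columns of the tables of day 0 against day 3 within each genotype, joined by locus. These tables were normalized separately for WT and cKO. The 18 other tables, with pooled means or functional terms, and the columns of p-values, q-values and fold changes from the comparisons by the authors were not used. Locus ends equal those of GRCm38.p6 RefSeq for 57.9% of 21550 genes and those of mm9 for 1.11% of 20239, so positions are given as GRCm38. Depth was estimated among 5174 genes with 1 annotated transcript, spliced, from those of them at about the level of 1 read.

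Ratios were log2((cKO + 0.1)/(WT + 0.1)) for genes that reached an FPKM of 1 in WT or cKO, a scale that understates the change of weakly expressed genes, with a size threshold of 1.5. With 1 library per genotype there was no test. There were 63 gene lists and 22 families by name. The members and lists were chosen with earlier results of these data known. Genes were named by rule: all remaining genes past the size rule, with full values for the 12 highest and 12 lowest at an FPKM of 5 or more, up to 4 members of each list with the largest ratio, the genes named by the study for its RNA measurements, the 10 most abundant T-cell genes, the 5 most abundant genes of each other-cell list, and the 3 nearest the threshold on each side. Some genes named by these rules are given only in counts or are not reported here, and a few genes outside them were added for their known role after their values were seen, among them *Cd44*, *Ets1*, *Dusp1*, *Spry2*, *Aim2*, *Dzip1* and *Trmt112*. The alternatives tried were a pseudocount of 1 or of 0.01, a minimum FPKM of 5, no minimum, ratios centred on their median, a threshold of 1, leaving out other-cell or small RNA genes, and including unnamed loci. A minimum of about 20 reads was added after the data were seen. The calculation was tested on simulated data that held counting error alone, with changes set only in genes at a mean FPKM above 5. That test does not bear on differences between mice, sorts or preparations, or on calls of weakly expressed genes. The software was pandas 2.3.3, numpy 2.4.6 and matplotlib 3.10.9, under Python 3.11.15.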

Additional observations from a re-analysis of the deposited data

Results flagged for a closer look

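*5730408K05Rik,Mir5136*, an RNA gene that shares a locus with a microRNA, had a log2 ratio of cKO to WT of -3.54 on day 0 (176 and 15.0 FPKM) and of 2.08 on day 3 (38.2 and 161 FPKM), so the single libraries of the 2 days pointed in opposite directions. *Cldn20*, which encodes a claudin, did the same at low levels, with -3.75 on day 0 (1.25 and 0 FPKM) and 1.53 on day 3 (0.428 and 1.42 FPKM). The difference between the days was not tested for either gene.

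Loci without a gene name, which the comparisons above leave out, also differed by the size rule. Of 6463 such loci that reached an FPKM of 1 in WT or cKO, 622 were higher in cKO by the size rule and 337 lower, 14.8% in all. They held 4.39% of all FPKM in WT and 23.03% in cKO. The most abundant of them is 25 bases long and was listed at 0 in WT and at 132754 FPKM in cKO, which is 17.1% of all FPKM there. Without it the other unnamed loci held 4.39% in WT and 7.12% in cKO. On day 3 it was present in both genotypes, at 4592620 FPKM in WT and 6705550 FPKM in cKO, so no direction was read from the 0.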

How the results depend on the processing

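The main counts were 53 genes higher and 198 lower. A pseudocount of 1 gave 27 and 46, an FPKM minimum of 5 gave 26 and 56, no minimum gave 233 and 517, and a size threshold of 1 gave 133 and 368. Leaving out genes of other-cell and sex-linked lists gave 112 lower genes, and leaving out small RNA genes 33 higher ones. With unnamed loci included the counts were 675 and 535. A minimum of about 20 reads, chosen after seeing the data, gave 26 higher genes. A pseudocount of 0.01 and centring left both counts within 1.5 times the main ones. Where a minimum or a class of genes changes, fewer or more genes enter by construction. A pseudocount of 1 damps ratios of weakly expressed genes by construction. Of 485 named genes, which include genes that had not passed the size rule, 135 no longer passed it with a pseudocount of 1. Among the remaining genes 8 of 30 higher and 9 of 96 lower calls were kept there. A further named gene, 1 in all, passed only with 0.01. No named gene that had passed the rule changed sign, and the signs of the others were not checked. Of 82 lists, 8 turned sign. The C-type lectins (-1.87) had a median of 0.013 over the 4 genes left at an FPKM of 5 and of -0.55 over 32 with no minimum, where fewer or more genes enter. The other 7 had medians near 0, between -0.18 and 0.04, and turned to values between -0.04 and 0.09. Medians of 3 further lists moved with their sign kept, to -1.68 for basophils, mast cells and eosinophils at an FPKM of 5, to -0.83 for platelets with no minimum and to -1.23 for further myeloid genes with a pseudocount of 1. No paired analysis was possible because each genotype has 1 library. Depth limits the weakly expressed genes most, and differences between 2 libraries cannot be told apart from differences between mice, sorts or preparations.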
